A study of Mus musculus with 43 samples.

Results

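The cytoplasmic ribosomal protein genes encode the proteins of the small (40S) and large (60S) ribosomal subunits. They were taken as the protein-coding genes of the mouse RefSeq gene table with the symbol Rpsa, Rplp0, Rplp1 or Rplp2, or with Rpl or Rps followed by a number and an optional suffix a, x or l. This rule found 81 genes of 21523 on chromosomes 1 to 19 and X, with 31 for the 40S and 50 for the 60S subunit. Binding of the erythroid transcription factor EKLF at these genes was read from chromatin immunoprecipitation and sequencing (ChIP-seq) of mouse fetal liver at embryonic day E13.5. The Nan/+ embryos are heterozygous for the Nan allele of Klf1, the gene of EKLF, and the WT embryos are labelled as wild type of the Nan strain. For each genotype 1 list of EKLF regions was analysed, made from 3 ChIP libraries together, and the series design gives the libraries as biological triplicates of littermate livers. The labelled cell type is primary erythroid. The cells were dispersed from whole fetal livers and strained, and no sort is described, so the other cells of the liver were present. The antibody is labelled 7B2a against EKLF, and in Nan/+ cells, which carry both alleles, the labels do not say whether it separates the products. Of the 43 samples in 19 groups, the CBP, H3K27ac, RNA polymerase II and ATAC samples were not analysed here.

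Every cell builds ribosomes from the products of these genes in near-equal amounts, and erythroid precursors make large numbers of ribosomes to translate globin messages. Heterozygous mutations of certain ribosomal protein genes cause Diamond-Blackfan anaemia in humans, in which red cell precursors fail. The mRNAs of the family begin with a run of pyrimidines at the start of transcription, which ties their translation to growth signals. EKLF is a zinc-finger activator of globin, heme and red cell membrane genes that binds C-rich elements of the CACC-box type. The Nan allele substitutes an amino acid in a DNA-contacting zinc finger, and its carriers are anaemic.

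The Nan/+ list held 15564 regions and the WT list 9181. The summed depth of the ChIP libraries was 258773474 tags in Nan/+ and 263040576 in WT. The lists were called with different window settings, and their minimum width was 176 bp in Nan/+, where 54.5% of the regions had it, and 126 bp in WT, where 3.29% had it. The lists give positions only, with no strength per region and no value per library. No difference between the genotypes could therefore be set against a spread between embryos, and none of the comparisons here carries a test. A region missing from a list is one that did not pass that list's calling thresholds. All 10 erythroid marker genes had a region in both lists, against 2 and 2 of 5 hepatoblast, 1 and 1 of 5 macrophage, 1 and 0 of 3 endothelial and 3 and 1 of 4 megakaryocyte marker genes in the Nan/+ and the WT list.

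Ribosomal protein genes carried EKLF regions more often than other genes in both genotypes. A gene was counted when a region had its centre inside the gene or at most 10 kb from it. In Nan/+ 55 of 81 genes had a region (67.9%, exact 95% binomial interval 56.6 to 77.8), against 37.5% of all protein-coding genes. In WT 54 of 81 had one (66.7%, interval 55.3 to 76.8), against 33.5% of all. Ribosomal protein genes are short, with a median length of 3175 bp against 17374 bp over all protein-coding genes, and short genes collect fewer regions. Other genes of the same lengths had a region in 24.5% in Nan/+ and in 25.5% in WT. The intervals cover counting error over genes only, and genes that share a region are not independent.

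The distance at which the regions lie shaped how the family differed from other genes. With the gene body alone, 20 genes in Nan/+ (24.7%) and 19 in WT (23.5%) had a region, near the 23.5% and 18.1% of all genes but above the 7.80% and 9.38% of genes of like length. With flanks of 1 kb, 38 genes in Nan/+ and 45 in WT were counted, or 46.9% and 55.6%, against 29.0% and 26.9% of all genes. With flanks of 5 kb, 49 genes in Nan/+ (60.5%, against 33.5% of all genes) and 48 in WT (59.3%, against 30.1%) were counted. With flanks of 50 kb the counts were 72 in Nan/+ (88.9%, against 57.3%) and 65 in WT (80.2%, against 50.0%), with 59 genes in both lists (against 42.5%) and 6 in WT alone (against 7.54%). In WT the largest step between neighbouring flank sizes was thus the one from the gene body to 1 kb, and from there to 10 kb only 9 more genes were added.

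**Figure D1:**
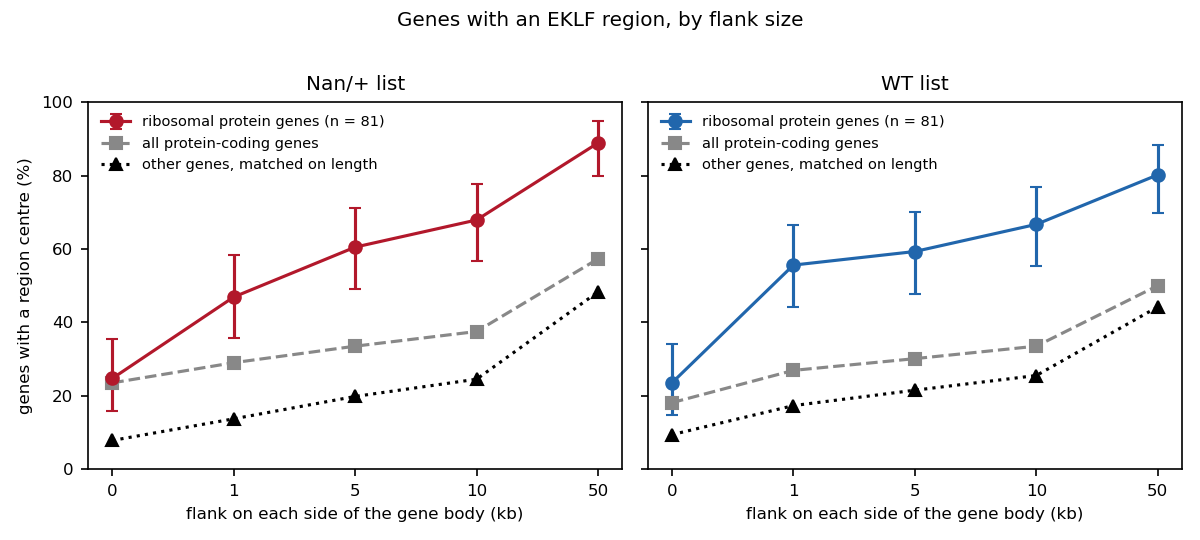
Percent of genes with the centre of an EKLF region in the gene body (0) or within flanks of 1, 5, 10 or 50 kb, in the Nan/+ list (left) and the WT list (right). Coloured circles are the 81 ribosomal protein genes with exact 95% binomial intervals, grey squares all protein-coding genes and black triangles other genes matched on length; the ribosomal protein genes lie above the length-matched genes at every flank size in both lists.

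At 38 genes both lists had a region (46.9%, against 23.5% of all genes), at 17 only the Nan/+ list (21.0%, against 14.1%) and at 16 only the WT list (19.8%, against 10.1%). At 10 genes neither list had one (12.3%, against 52.4%). The genes with a region in Nan/+ alone included Rps4x, Rps7, Rps9, Rps10, Rps14, Rps18, Rps21, Rps27 and Rps27l of the small subunit and Rpl4, Rpl9, Rpl14, Rpl15, Rpl22, Rpl34 and Rpl36 of the large one. The genes with a region in WT alone were Rpsa, Rps3, Rps13, Rps15a and Rps26, and Rpl7a, Rpl12, Rpl13, Rpl17, Rpl19, Rpl26, Rpl28, Rpl32, Rpl37, Rpl37a and Rpl38. Those with none included Rps16, Rps27a, Rplp1, Rplp2, Rpl5, Rpl10l, Rpl23, Rpl32l and Rpl39l. Which list covered more genes alone changed with the rule. With 1 kb flanks 22 genes had a region in both lists (against 16.8% of all genes), 16 in Nan/+ alone (against 12.2%) and 23 in WT alone (against 10.1%). Leaving out Nan/+ regions of minimum width gave 12 genes with Nan/+ regions alone (against 6.98% of all genes) and 23 with WT regions alone (against 15.4%), an order also seen over all genes. This rule trims the Nan/+ list only, so it cannot raise the first count or lower the second. The widest 50% of each list gave 21 genes in Nan/+ alone (against 12.2% of all genes) and 16 in WT alone (against 8.73%).

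**Figure D2:**
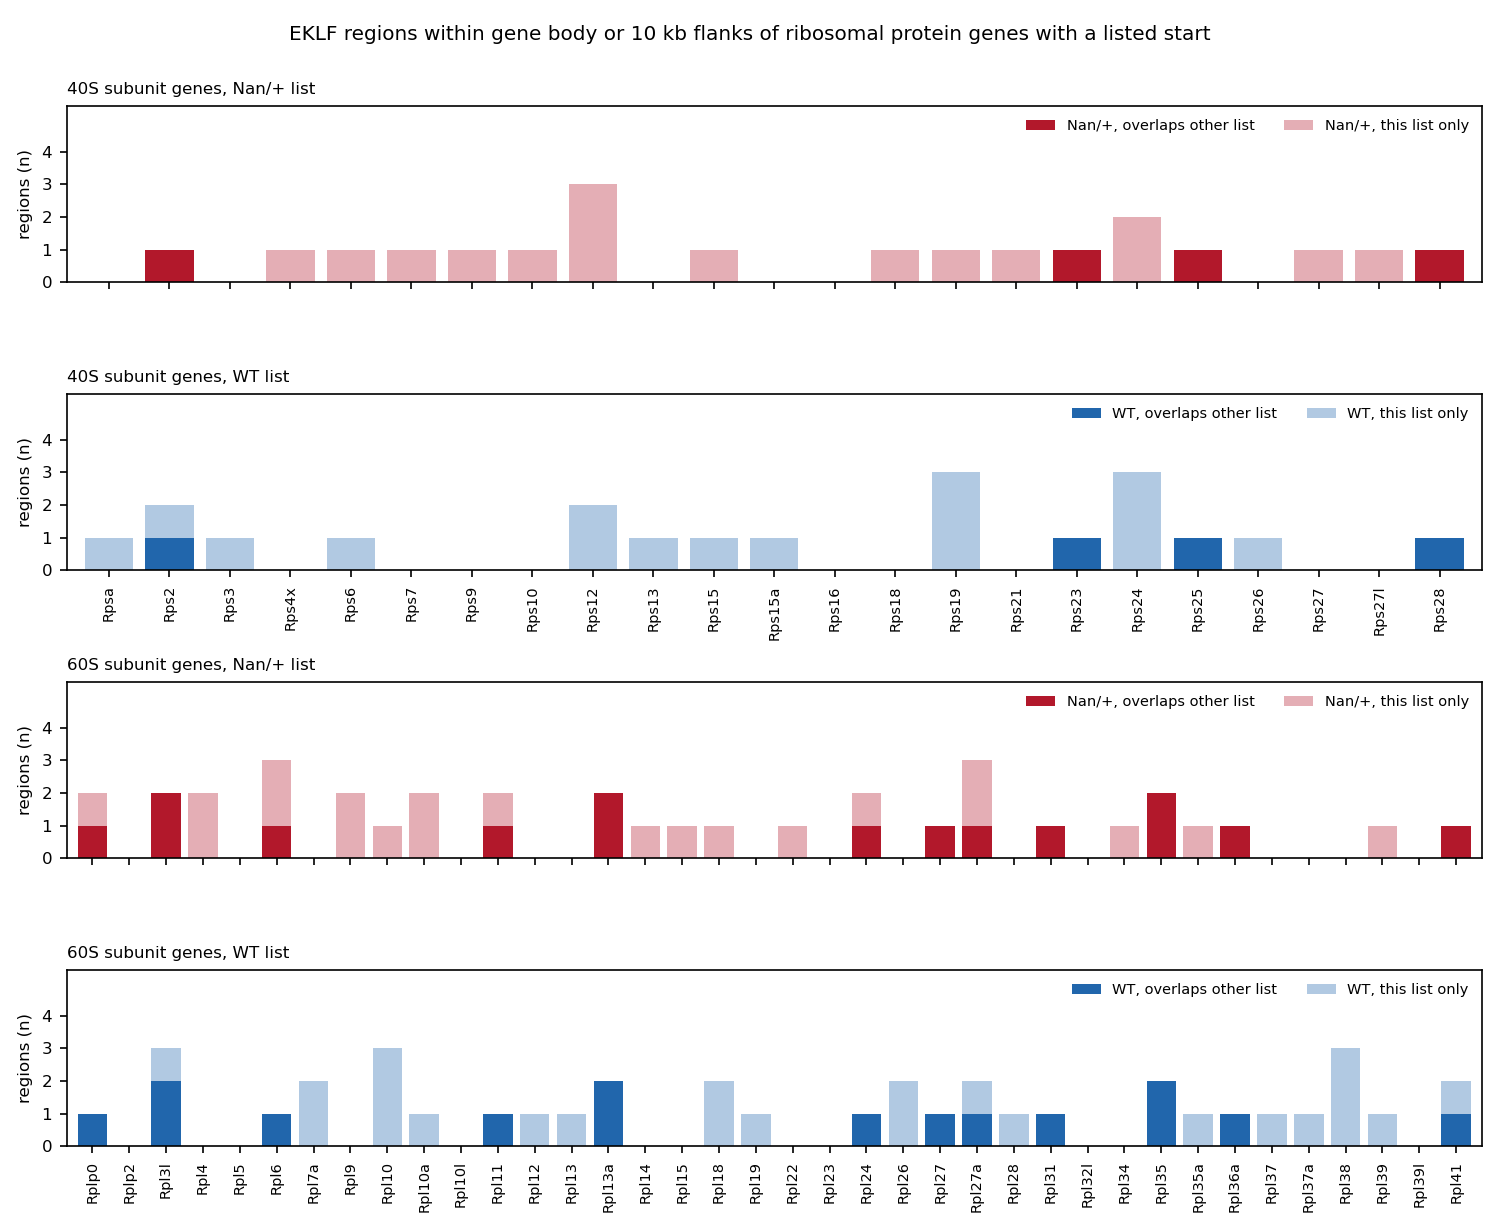
Number of EKLF regions with their centre in the body or 10 kb flanks of each of the 61 ribosomal protein genes with a RefSeq promoter window, for 40S genes (upper pair of panels) and 60S genes (lower pair), Nan/+ in red above WT in blue. Dark bars count regions that overlap a region of the other list and light bars those that do not; the highest count among these genes is 3 in both lists, reached in Nan/+ by Rps12, Rpl6 and Rpl27a and in WT by Rps19, Rps24, Rpl3l, Rpl10 and Rpl38.

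Over the gene start itself the lists differed most. RefSeq promoter windows, from 250 bases before to 50 bases after the start of transcription, were listed for 61 of the 81 genes. A Nan/+ region overlapped the window at 16 of them (26.2%, interval 15.8 to 39.1), against 13.0% of all 17274 listed genes. A WT region did so at 30 (49.2%, interval 36.1 to 62.3), against 20.4% of all. The shorter WT list thus covered more of these starts, as it did over all genes. Other genes with windows of the same number of CpG dinucleotides, of which the family had a median of 21.0 against 14.0 over all genes, were covered at 19.6% in Nan/+ and 31.0% in WT. The Nan/+ share of the family lay close to that of its CpG-matched genes, which was inside the interval, and in WT the CpG-matched share lay below the interval. Other genes of the same lengths were covered at 8.84% in Nan/+ and 14.2% in WT, below the interval of the family in both lists. Counting region centres within 1 kb of the start in place of overlap gave 18 genes in Nan/+ and 32 in WT. Of all listed genes 16.4% and 22.4% were counted in this way.

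Both lists had a region over the start at 9 genes, Nan/+ alone at 7 and WT alone at 21, and neither at 24. Against all genes these were 14.8% and 8.05% for both, 11.5% and 4.97% for Nan/+ alone, 34.4% and 12.4% for WT alone, and 39.3% and 74.6% for neither. Of the 30 starts covered in WT, 30.0% were also covered in Nan/+, against 39.4% of 3531 over all genes. Of the 16 covered in Nan/+, 56.2% were also covered in WT, against 61.8% of 2248. Most WT starts of the family thus had no Nan/+ region, which was also the case over all genes.

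The 150 bases before the start are shown for genes of each kind, so that the elements discussed below can be seen beside the call. They are RefSeq sequences of the GRCm38.p6 (mm10) assembly, written 5′ to 3′ on the strand of the gene and ending at the base before the start (position -1, with the start at 0). Capitals mark 2 elements on either strand, so that the reverse complement is also in capitals. The first is CCNCNCCC, the C-rich element of the EKLF type. The second is CGGAAG, the core bound by ETS factors, and the elements do not overlap in the windows shown. Rpl35 (chr2:39005132-39005281, minus strand) and Rpl41 (chr10:128549169-128549318, minus strand) had regions in both lists. Rpl14 (chr9:120571367-120571516, plus strand) and Rps24 (chr14:24490528-24490677, plus strand) had a region in Nan/+ alone. Rps15a (chr7:118116148-118116297, minus strand), Rps6 (chr4:86857368-86857517, minus strand) and Rps19 (chr7:24884442-24884591, plus strand) had a region in WT alone. Rps15 (chr10:80292281-80292430, plus strand) and Rpl6 (chr5:121204351-121204500, plus strand) had none over the start. Except for Rps19, added because it is the gene most often mutated in Diamond-Blackfan anaemia and has neither element here, the genes shown were taken for each kind by holding both elements first, then by number of matches and then by symbol, among genes whose listed start is the outer end of the gene and which have no neighbouring gene close to it.
Rpl35: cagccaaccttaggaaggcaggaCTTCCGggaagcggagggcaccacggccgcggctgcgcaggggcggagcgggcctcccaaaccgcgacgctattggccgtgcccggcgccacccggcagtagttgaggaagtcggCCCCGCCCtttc
Rpl41: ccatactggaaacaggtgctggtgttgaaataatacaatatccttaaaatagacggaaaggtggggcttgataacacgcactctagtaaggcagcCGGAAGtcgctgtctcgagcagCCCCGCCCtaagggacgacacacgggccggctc
Rpl14: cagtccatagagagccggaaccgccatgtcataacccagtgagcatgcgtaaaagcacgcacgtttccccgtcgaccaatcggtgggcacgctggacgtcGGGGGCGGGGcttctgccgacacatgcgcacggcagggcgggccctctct
Rps24: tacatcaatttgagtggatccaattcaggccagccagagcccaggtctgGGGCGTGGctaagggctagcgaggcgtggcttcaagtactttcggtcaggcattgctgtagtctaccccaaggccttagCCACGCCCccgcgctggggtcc
Rps15a: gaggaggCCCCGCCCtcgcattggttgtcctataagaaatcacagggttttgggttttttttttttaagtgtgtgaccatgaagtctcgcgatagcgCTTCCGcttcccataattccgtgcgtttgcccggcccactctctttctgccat
Rps6: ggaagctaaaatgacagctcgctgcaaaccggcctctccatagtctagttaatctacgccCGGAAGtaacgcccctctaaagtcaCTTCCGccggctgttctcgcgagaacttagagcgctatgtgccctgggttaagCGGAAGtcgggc
Rps15: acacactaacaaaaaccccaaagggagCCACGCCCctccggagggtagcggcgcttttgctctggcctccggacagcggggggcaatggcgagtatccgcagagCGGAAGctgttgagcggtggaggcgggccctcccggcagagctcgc
Rpl6: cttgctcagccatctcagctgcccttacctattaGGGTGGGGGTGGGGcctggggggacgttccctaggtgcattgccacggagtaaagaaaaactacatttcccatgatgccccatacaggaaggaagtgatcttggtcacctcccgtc
Rps19: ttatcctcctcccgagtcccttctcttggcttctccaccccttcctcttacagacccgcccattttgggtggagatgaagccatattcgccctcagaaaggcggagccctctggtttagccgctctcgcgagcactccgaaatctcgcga

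At Rpl35 the CCCCGCCC from -12 to -5 lay inside the Nan/+ and the WT region, and the CTTCCG from -127 to -122 inside the WT region alone. At Rpl41 the CCCCGCCC from -33 to -26 and the CGGAAG from -55 to -50 lay inside both regions. At Rpl14 the overlapping GGGGGCGG and GGGCGGGG, from -50 to -41, lay inside the Nan/+ region. At Rps24 both the GGGCGTGG from -101 to -94 and the CCACGCCC from -22 to -15 did so. At Rps15a the CCCCGCCC from -143 to -136 and the CTTCCG from -53 to -48 lay inside the WT region, and at Rps6 so did all 3 ETS cores. Rps15 and Rpl6 held CCNCNCCC matches with no region over them, and Rps19 had a WT region over its start with no match in the letters shown.

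Where both lists covered a start, their regions overlapped each other at all 9 genes. These genes were Rps23 of the small subunit and Rpl11, Rpl13a, Rpl27a, Rpl31, Rpl35, Rpl36a, Rpl41 and Rplp0 of the large one. The WT region was the wider one at 8 of 9, with a median width of 367 bp in Nan/+ and 510 bp in WT. At Rplp0, the base of the ribosomal stalk, the region was 367 bp wide in Nan/+ (chr5:115559241-115559607) and 780 bp in WT (chr5:115559311-115560090). At Rpl11, a partner of 5S ribosomal RNA, it had the minimum width of 176 bp in Nan/+ and 339 bp in WT. The widths were 279 bp in Nan/+ and 620 bp in WT at Rps23, 235 bp and 510 bp at Rpl36a, and 402 bp and 562 bp at Rpl41. Nearer to each other were Rpl13a with 517 bp in Nan/+ and 639 bp in WT, Rpl31 with 395 bp and 484 bp, and Rpl35 with 300 bp and 349 bp. Rpl27a was the exception, with 944 bp in Nan/+ and 406 bp in WT, and the Nan/+ region there (chr7:109518487-109519430) was the widest of all Nan/+ regions at the family. Width follows the calling settings of each list and is not a measure of strength.

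The 7 starts covered in Nan/+ alone belonged to Rps18, Rps24, Rps27, Rpl9, Rpl14, Rpl15 and Rpl22. At 6 of them no WT region lay anywhere in the body or 10 kb flanks. Rps24, a small subunit protein needed to mature 18S ribosomal RNA, differed from these, with 2 Nan/+ regions (one over the start at chr14:24490540-24490958) and 3 WT regions that all lay elsewhere, 1 upstream and 2 downstream of the gene. The widest of the Nan/+ regions over these starts were 686 bp at Rps18 and 513 bp at Rpl15, and none had the minimum width. At Rps18, Rps27, Rpl9 and Rpl15 the region over the start had its centre nearer to another protein-coding gene.

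The 21 starts covered in WT alone were those of Rps2, Rps3, Rps6, Rps12, Rps13, Rps15a, Rps19 and Rps26, and of Rpl10, Rpl10a, Rpl12, Rpl18, Rpl19, Rpl26, Rpl27, Rpl28, Rpl35a, Rpl37, Rpl37a, Rpl38 and Rpl39. Rps19 had 3 WT regions, at chr7:24883885-24884208 just upstream, at chr7:24884355-24884823 over the start and at chr7:24890074-24890913 beyond the far end. Its 1 Nan/+ region, at chr7:24891534-24891893, lay further downstream and overlapped none of these. Rps6, the protein phosphorylated by S6 kinases, had its WT region over the start (543 bp) and a Nan/+ region of minimum width 3259.5 bp downstream of the start, at the far end of the gene. Rpl38, which in mice is needed for normal patterning of the skeleton, had 3 WT regions and none in Nan/+. At Rpl27 the WT region over the start, 869 bp wide, overlapped a Nan/+ region of minimum width whose edge fell outside the promoter window. At Rpl12, Rpl35a and Rpl37 the WT region over the start had its centre nearer to another protein-coding gene.

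**Figure D3:**
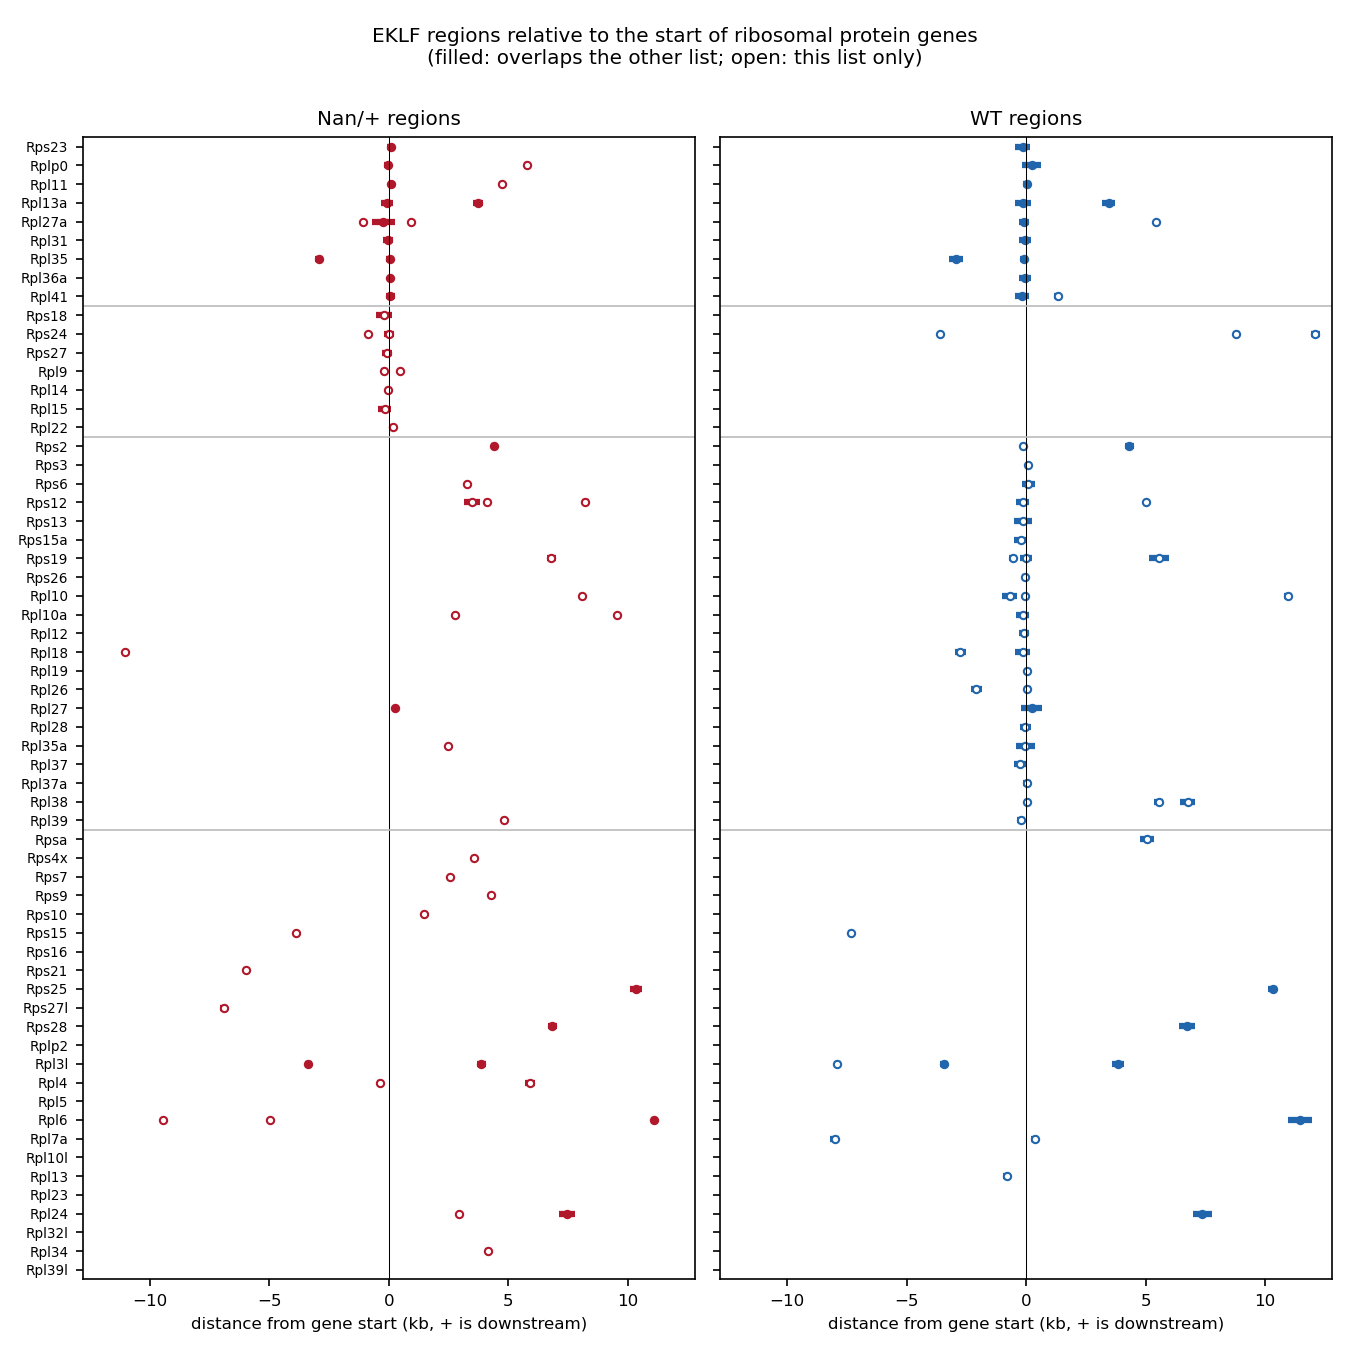
Distance in kb of each EKLF region's centre from the nearest listed start of the 61 ribosomal protein genes with a promoter window, in the direction of transcription, for Nan/+ regions (left) and WT regions (right); horizontal bars give region width. Filled circles are regions that overlap a region of the other list and open circles the rest, and grey lines divide genes with a start covered in both lists (top, 9), in Nan/+ alone (7), in WT alone (21) and in neither (24).

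At the 20 genes without a listed start neither end could be called the start, and 25 Nan/+ and 19 WT pairs of a region and a gene fell there. Several of these regions lay directly at a gene end and overlapped between the lists. At Rpl30 the shared region was 243 bp wide in Nan/+ and 519 bp in WT, with centres 22 bp and 9 bp from the same end. At Rps20 it was 406 bp in Nan/+ and 479 bp in WT, and at Rpl23a 430 bp in Nan/+ and 782 bp in WT. At Rps29 a Nan/+ region of 436 bp had its centre 44.5 bp inside an end, with no WT region there. Rpl36 and Rps14, for which no WT region was counted, had Nan/+ regions inside the gene, 455 bp and 276 bp wide.

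Seen over all regions rather than genes, the Nan/+ regions lay further from the start. Of 56 Nan/+ pairs of a region and a gene with a listed start, 16 lay over the start (28.6%), 9 in the body, 11 upstream and 20 downstream. Of 59 WT pairs, 30 lay over the start (50.8%), 1 in the body, 11 upstream and 17 downstream. At other genes of the same range of lengths, 23.9% of 2395 Nan/+ pairs and 34.4% of 2700 WT pairs lay over the start. The median distance from the start was 3104 bp in Nan/+ and 240 bp in WT.

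Of the 9 Nan/+ regions inside gene bodies, 8 had the minimum width, as had 8 of the 11 upstream ones but only 1 of the 16 over a start. The 9 body regions lay in Rps4x, Rps6, Rps7, Rps10, Rpl9, Rpl24, Rpl27, Rpl27a and Rpl35a, and the 1 in WT lay in Rpl7a. Region centres over the start had a median position of -31.25 bp in Nan/+ and -53 bp in WT.

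The regions at the family were wider and more often shared than those of the whole lists. Its 78 distinct Nan/+ regions had a median width of 265 bp against 176 bp in the whole list, and 33.3% of them had the minimum width against 54.5%. Its 74 distinct WT regions had a median width of 480.5 bp against 396 bp. In Nan/+ 28 regions overlapped a WT region (35.9%, interval 25.3 to 47.6), against 14.7% of the whole list. In WT 28 overlapped a Nan/+ region (37.8%, interval 26.8 to 49.9), against 24.5%. The whole lists were not matched to the family by position. Over gene starts alone the family was not more often shared than all genes. There 9 of its 30 WT-covered starts (30.0%) were also covered in Nan/+, against 39.4% over all genes. Of its 16 Nan/+-covered starts 9 (56.2%) were also covered in WT, against 61.8%. No interval was computed for these shares, and with so few starts they do not set the family apart.

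The shared regions fell at 25 genes. At 13 further genes both lists had regions but none overlapped, among them Rps6, Rps12, Rps15, Rps19, Rps24, Rpl8, Rpl10, Rpl10a, Rpl18, Rpl29, Rpl35a and Rpl39. A gene counted in both lists therefore did not always hold the same site. How often this occurs over all genes was not computed. Over the whole lists 14.7% of Nan/+ and 24.5% of WT regions overlapped a region of the other list. The widest shared regions were often not at the ribosomal protein gene itself. At Rpl23a, with 3 Nan/+ and 4 WT regions, the widest WT region of the family (1718 bp, chr11:78177209-78178926) lay 2867.5 bp from the gene and nearer to another gene. The WT region of 1018 bp counted for Rpl6 lay 6722.5 bp beyond its end. At Rpl3, on the other hand, a shared region of 943 bp in Nan/+ and 610 bp in WT lay within 1 kb of the gene, which was the nearest.

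Counting each region only for the nearest protein-coding gene left 41 of the 81 genes with a region in Nan/+ and 41 in WT (50.6% each), against 29.8% and 25.2% of all genes and 14.2% and 15.4% of length-matched ones. Both lists had such a region at 24 genes, against 16.0% of all. Neighbouring members also share regions. Rps2 and Rpl3l on chromosome 17 shared 1 Nan/+ and 2 WT regions. Rpl3l, a muscle paralog of Rpl3, had 2 Nan/+ and 3 WT regions, none over its start and all nearer to another gene.

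By number of regions, 30 genes had more in Nan/+, 25 had more in WT and 16 had the same number above 0. The same count was not made over all genes, and the Nan/+ list is the longer one, with 15564 regions against 9181. In Nan/+ 34 genes had 1 region, 16 had 2 and 5 had 3. In WT 37 had 1, 11 had 2, 5 had 3 and 1 had 4. The genes with 3 in Nan/+ were Rps12, Rpl6, Rpl23a, Rpl27a and Rpl30, which had 2, 1, 4, 2 and 1 in WT. The genes with 3 or more in WT were Rps19, Rps24, Rpl3l, Rpl10, Rpl23a and Rpl38, which had 1, 2, 2, 1, 3 and 0 in Nan/+. Rpl10 (also called QM) completes the large subunit late in assembly. Its 3 WT regions, 1 of them over the start, overlapped none of the Nan/+ list.

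Both subunits had regions at more than the 37.5% (Nan/+) and 33.5% (WT) of all protein-coding genes. Of the 31 small subunit genes 23 had a region within 10 kb in Nan/+ and 18 in WT, or 74.2% and 58.1%. Of the 50 large subunit genes 32 had one in Nan/+ and 36 in WT, or 64.0% and 72.0%. Over the start, where 13.0% of all genes were covered in Nan/+ and 20.4% in WT, the WT list covered more genes of both subunits, as it did over all genes. At small subunit genes 4 of 23 listed starts were covered in Nan/+ (17.4%) and 9 in WT (39.1%). At large subunit genes the counts were 12 of 38 in Nan/+ (31.6%) and 21 in WT (55.3%). With so few genes a shift of 1 or 2 genes moves these shares by several percentage points, and the difference between subunits was not tested.

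The stalk and the 5S particle split within themselves. The stalk recruits translation factors to the large subunit. Its base Rplp0 had 2 Nan/+ regions and 1 WT region, while its partners Rplp1 and Rplp2 had none in either list. Rpl11 and Rpl5 bind 5S ribosomal RNA together and, when ribosome assembly fails, bind the p53 regulator Mdm2. Rpl11 had 2 Nan/+ regions and 1 WT region, with both lists over its start, and Rpl5 had none. Rpsa, a small subunit protein also described as a laminin receptor, had no Nan/+ region and 1 WT region, 593 bp wide and 463 bp beyond the far end of the gene.

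Genes mutated in human Diamond-Blackfan anaemia were covered in 16 of 20 cases in Nan/+ (80.0%) and 14 in WT (70.0%). Members not on that list were covered in 39 of 61 in Nan/+ (63.9%) and 40 in WT (65.6%), and all protein-coding genes in 37.5% and 33.5%. The difference between disease genes and other members was not tested. Of the disease genes 11 had regions in both lists. Rps7, Rps10, Rps27 and Rpl15 were among those with a region in Nan/+ alone, and Rps15a, Rps26 and Rpl26 had one in WT alone. Rpl5 had none in either. Over the start, 6 of 17 disease genes were covered in Nan/+ (35.3%) and 10 in WT (58.8%), against 10 of 44 and 20 of 44 other members (22.7% and 45.5%) and 13.0% and 20.4% of all genes. The starts covered in both lists were those of Rpl11, Rpl31 and Rpl35. Rps24, Rps27 and Rpl15 were covered in Nan/+ alone, and Rps15a, Rps19, Rps26, Rpl18, Rpl26, Rpl27 and Rpl35a in WT alone.

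**Figure D4:**
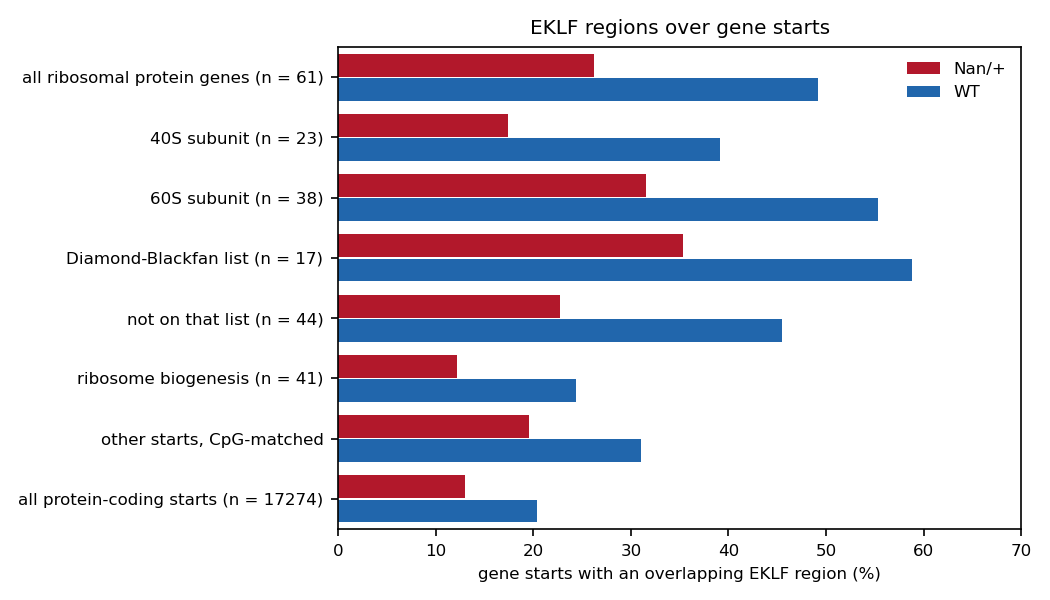
Percent of gene starts overlapped by an EKLF region (window from 250 bases before to 50 after the start), Nan/+ in red above WT in blue, for ribosomal protein genes, their subunit and disease groups, ribosome biogenesis genes, other genes matched on CpG number and all protein-coding genes. In each group the WT list covers more starts, with 12.2% to 35.3% covered in Nan/+ and 24.4% to 58.8% in WT over the lists of named genes.

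Of 4 members listed as paralogs of another member, 2 had a region in Nan/+ and 1 in WT. Rpl10l, a testis copy of Rpl10, and Rpl39l had none, Rps27l had 1 in Nan/+ alone, at -6920 bp from its start, and Rpl3l is described above. None of these 4 had a region over the start in either list. Rpl32l, which was left out of the list of paralogs, had no region in Nan/+ or WT. Ribosomal proteins whose symbols fall outside the rule were covered in 5 of 6 cases in Nan/+ and 3 in WT, against 37.5% and 33.5% of all genes. Rack1, a scaffold protein on the small subunit, had 3 Nan/+ regions and none in WT. Fau, which makes a ribosomal protein fused to a ubiquitin-like protein, had 1 in Nan/+ and 2 in WT. Rpl22l1 had 1 in each list, Rpl7l1 1 in Nan/+ alone and Rpl36al none. Rps3a1, named after its values were seen, had 1 WT region, over its start, and none in Nan/+.

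Genes that build the ribosome were taken as a list of 49, with a median length of 19090 bp. Of these 23 had a region in Nan/+ (46.9%) and 22 in WT (44.9%), against 37.5% and 33.5% of all genes and 67.9% and 66.7% of the family, and the difference from the family was not tested. Over the start 5 of 41 were covered in Nan/+ (12.2%) and 10 in WT (24.4%), near the 13.0% and 20.4% of all genes. Ubtf, which opens ribosomal DNA for RNA polymerase I, had 2 Nan/+ and 5 WT regions with its start covered in both lists. The nucleolar proteins Npm1 and Ncl had 0 and 1 in Nan/+ and 2 and 2 in WT. The box C/D protein Nop58 and the GTPase Gnl3 had 3 each in Nan/+ and none in WT.

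Elongation factors and other genes whose mRNAs also begin with a pyrimidine run form a list of 9, with a median length of 7110 bp. Of these 8 had a region in Nan/+ and 8 in WT (88.9% each), against 37.5% and 33.5% of all protein-coding genes. Eef2, the translocation factor, had 2 Nan/+ and 4 WT regions. Eef1a1, which delivers aminoacyl tRNA, had 1 in each list, with its start covered in Nan/+ alone. Pabpc1, the cytoplasmic poly(A)-binding protein, had 5 in Nan/+ and 3 in WT.

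The start windows of the family held EKLF-type elements at a share near that of all genes. CCNCNCCC, on either strand, was found in 36 of the 61 windows (59.0%, interval 45.7 to 71.4), against 56.4% of all 17274 windows and 70.5% of windows with the same CpG number. The forms with a fixed letter at the second N are subsets of it. With G there, CCNCGCCC, the element was found in 22 windows (36.1%, against 32.1% of all). With A there, CCNCACCC, it was found in 7 (11.5%, against 17.8%). The CACC-box core CACCC, contained in some of these, was in 34 (55.7%, against 58.7%). A match is a run of letters and no measured binding site.

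Elements were sought in the first listed window of each gene, which is called covered here when a region overlapped any listed start. Among covered windows, 9 of 16 in Nan/+ (56.2%) and 20 of 30 in WT (66.7%) held CCNCNCCC. Over all genes CCNCNCCC was in 75.1% of 2248 and 75.0% of 3531. Of the 24 windows covered in neither list 13 held it (54.2%, against 50.4% of 12885). CCNCGCCC was in 8 of 16 Nan/+ windows and 13 of 30 WT windows, or 50.0% and 43.3%, against 55.2% and 53.6% of covered windows over all genes. It was in 6 of 24 windows covered in neither, against 3221 of 12885 over all genes. CCNCACCC was in none of the 16 Nan/+ windows and in 5 of the 30 WT windows, against 19.8% and 20.6% of covered windows over all genes. A count of 0 of 16 does not show that the share differs from that over all genes. Of covered windows with CCNCNCCC, at least 1 match lay wholly inside the region at 8 of 9 in Nan/+ and 20 of 20 in WT. By match this was 12 of 13 and 26 of 28. For the ETS core CGGAAG the counts were 8 of 9 and 17 of 21, and by match 13 of 14 and 24 of 31. Regions over a start had median widths of 381 bp in Nan/+ and 483 bp in WT, against windows of 300 bases. These counts therefore do not set either element apart, and they were not made over all genes.

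Other elements set the family apart from all genes. The ETS core CGGAAG was found in 41 of 61 windows (67.2%, interval 54.0 to 78.7), against 21.8% of all windows and 31.7% of those with the same CpG number. Its 63 matches had a median position of -55, and 30 lay in the 100 bases before the start. ATGGCG, the core of the element bound by YY1, was in 17 windows (27.9%, against 11.3% of all and 16.0% of those with the same CpG number). Its 18 matches had a median position of 15.5, after the start, and 6 lay in the 100 bases before it. Whether these matches are YY1 sites was not tested. A C at the start base followed by at least 4 pyrimidines was found at 13 genes (21.3%, interval 11.9 to 33.7), against 2.20% of all. At most listed starts of the family the run was thus not found at that base. All positions are counted from the listed start, and whether it is the exact first base of the mRNA was not tested. The GATA element AGATAA was in 4 windows (6.56%, against 10.0%) and TATAAA in 6 (9.84%, against 13.4%).

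The ETS core was found both with and without a region over the start. A window is again called covered when a region lay over any listed start. At Rpl19, counted for WT, that start was not the one whose window was searched. The core was in 9 of 16 windows covered in Nan/+ (56.2%) and in 21 of 30 covered in WT (70.0%). It was also in 17 of 24 covered in neither (70.8%). Over all genes it was in 36.2%, 37.7% and 16.3% of these classes.

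**Figure D5:**
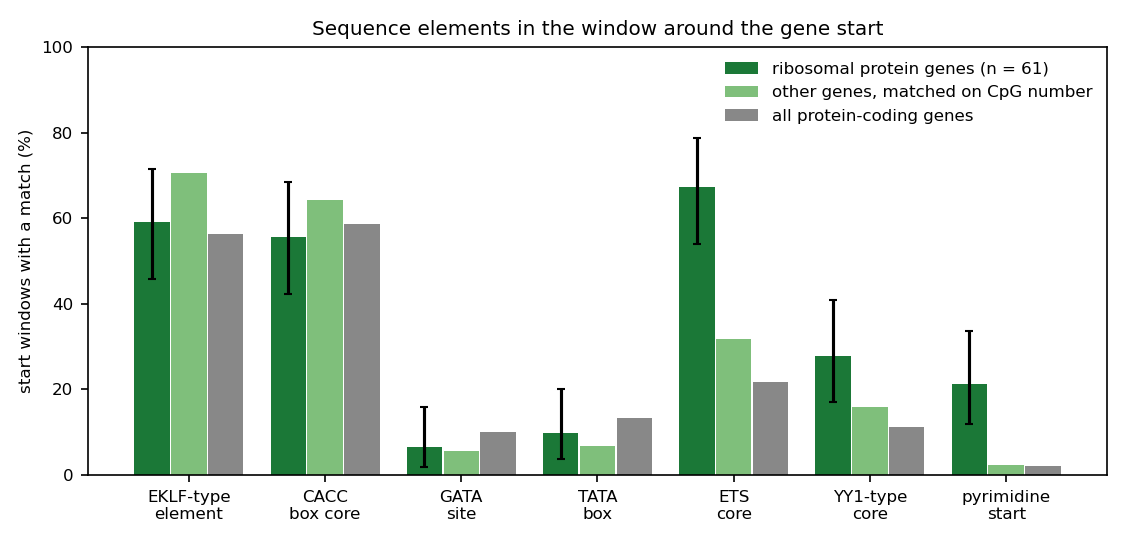
Percent of start windows (250 bases before to 50 after the start) with a match, for the 61 ribosomal protein genes (dark green, exact 95% binomial intervals), other genes matched on CpG number (light green) and all protein-coding genes (grey). The elements are those spelled out in the text, from the EKLF-type element on the left to the C at the start base followed by at least 4 pyrimidines on the right; for the last 3 the share of CpG-matched genes lies below the interval of the family.

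By chromosome, the largest group was the 14 members on chromosome 7, of which 7 had a region in Nan/+ and 9 in WT. All 7 members on chromosome 17 had a region in Nan/+ and 4 had one in WT, while of the 7 on chromosome 11 the Nan/+ list covered 2 and the WT list 5. These sets are small and hold neighbours that share regions. Over all chromosomes 37.5% of protein-coding genes had a region in Nan/+ and 33.5% in WT, and shares by chromosome were not computed.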

How the data were processed

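EKLF ChIP libraries (3 per genotype) were called together by the authors with HOMER on mm10 at q 0.01 and fold 4, with a DESeq2 step at a false discovery rate of 0.01 and log2 fold 2, per the file headers. Size and minimum distance were 175 and 300 bp in Nan/+ and 125 and 250 bp in WT, and each list used 2 distinct inputs, per the file headers. The submitters' processing notes name bcl2fastq 2.17, Bowtie2 2.1, SAMtools 1.1 and deepTools 3.5. ChIP libraries held 72023512 to 100763687 tags in Nan/+ and 74140385 to 103170594 in WT. The score deposited by the authors was 1 in every row, so width replaced the planned ranking by value.

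Genes came from RefSeq (GRCm38.p6), leaving out Y, the mitochondrial chromosome and starts below 3 Mb. Regions were counted with Python 3.11.15, pandas 2.3.3 and numpy 2.4.6, intervals with scipy 1.17.1 (Clopper-Pearson), and scripts were tested on simulated data. Regions were shared at an overlap of at least 1 bp. Length- and CpG-matched shares average other genes over 10 strata, weighted like the members. Promoter windows came from RefSeq, and 10 members had more than 1 listed start, any of which counted for regions. Elements were sought in the first listed window only. Genes were named by their role, subunit, disease list, start call or rank in number or width of regions. The members and lists were chosen with earlier results of these data known. Some members and other ribosomal protein genes are counted but not reported here by name. Alternatives changed flanks, assignment, width, list length, overlap, motif and window.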

Additional observations from a re-analysis of the deposited data

How the results depend on the processing

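Of 58 alternative values 49 kept their size within the limits used and 9 moved. For counts and length-matched shares the limit was a fixed ratio to the main value. For overlap and motif shares it was the interval of the main value. Some of the 49 could not move. The WT list stayed whole when Nan/+ regions of minimum width were left out and at equal list lengths, and CpG matching changed only the comparison genes. The number of genes with regions in both lists, 38, was 22 with 1 kb flanks, 59 with 50 kb flanks and 24 with the nearest gene only. With the widest 50% of each list it was 23, against 13.9% of all genes. The number in WT alone, 16, was 6 with 50 kb flanks. The shared share of 35.9% in Nan/+ and 37.8% in WT was 16.7% and 17.6% at a reciprocal overlap of 50%, where the whole lists had 8.41% and 14.3%. The CCNCNCCC share of 59.0% was 39.3% in the window from 100 bases before the start (43.8% of all) and 14.8% for CCACNCCC (19.4% of all). Start counts ranged from 15 to 18 in Nan/+ and from 30 to 32 in WT. With Nan/+ regions wider than the minimum alone, 43 genes had a Nan/+ region (against 25.1% of all genes), and 46 with equal list lengths (against 28.1%). From 55 to 81 of the 81 genes kept their call, fewest with the widest 50%. The causes of these shifts were not tested. CpG matching, and equal list lengths for the starts, were added with the values in view. No paired analysis was possible because the lists hold positions pooled over libraries, so that no library could be left out either.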

Other observations

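Many ribosomal protein genes carry small nucleolar RNAs, which guide the modification of ribosomal RNA, within their introns. By position, 29 members hold one. Of these 16 had a region within 10 kb in Nan/+ and 24 in WT, against 39 and 30 of the 52 members without one and 37.5% and 33.5% of all protein-coding genes. Over the listed starts the counts were 2 in Nan/+ and 10 in WT of 19 host genes, and 14 and 20 of 42 others, where 13.0% and 20.4% of all starts were covered. This split was chosen after the lists were examined and was not tested.

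Processed copies of ribosomal protein genes are among the most numerous mouse pseudogenes, and the gene table lists 323. A region overlapped 1 of them in Nan/+ (Rps19-ps7) and 1 in WT (Rpl13-ps1), or 0.310% in each list, against 0.686% and 0.384% of 9906 other pseudogenes. By the same measure, overlap with the gene body, 30 of the 81 members had a region in Nan/+ and 37 in WT. The share of all protein-coding genes by this measure was not computed. With region centres in the body, 24.7% of members in Nan/+ and 23.5% in WT had one, against 23.5% and 18.1% of all genes. Reads from a copy that matches its parent gene cannot always be placed, and the sources used here do not give the authors' handling of such reads.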
